A study of Mus musculus with 4 samples.

Results

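The phagocyte NADPH oxidase was followed through 6 of its genes, Cybb, Cyba, Ncf1, Ncf4, Rac1 and Rac2, out of the 24706 genes listed for each library. Their rows were taken by name, as those carrying these symbols, and the genes were chosen with earlier results of these data known. The oxidase is an enzyme of neutrophils, monocytes and macrophages that moves electrons from NADPH across a membrane to oxygen and so makes superoxide, the starting point of the respiratory burst that kills ingested microbes. Its membrane core, flavocytochrome b558, consists of gp91phox (Cybb) and p22phox (Cyba). In resting cells regulatory subunits, p47phox (Ncf1) and p40phox (Ncf4) among them, wait in the cytosol, and on stimulation they join the core together with a Rac GTPase (Rac1 or Rac2). Loss of a core or regulatory subunit causes chronic granulomatous disease in people.

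The data are 4 RNA-seq libraries of mouse myeloid cells, 2 labelled wt and 2 labelled cko. In the figures of the study the controls are PD-1f/f mice, which carry LoxP sites around an exon of Pdcd1, while its methods call them wild-type. The cko libraries are from PD-1f/f mice that also carry LysM-Cre, in which Cre recombinase is made from the lysozyme 2 locus (Lyz2) of myeloid cells. The results describe CD11b+ cells sorted from the liver of pups at P3, the methods whole livers at P2 without a sort, and these accounts were not resolved. No label says that the libraries of a group come from separate animals, so p-values measure the spread between these libraries. For cko this spread may be technical, whereas the wt libraries differ in Y-linked transcripts (values in the next paragraph) and so do not share 1 animal or pool. Values are FPKM, which correct read counts for the length of each gene and the size of each library, and 17691505 to 22212407 counted reads lay behind each library.

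Pdcd1, the targeted gene, stood at 28.5 and 34.7 FPKM in wt replicates 1 and 2 and at 17.1 and 21.4 in the cko replicates. Both cko libraries were below both wt libraries, with transcript remaining in each (log2 fold change −0.69, adjusted p = 0.218, limma). Lyz2, whose locus carries Cre, was at 31306 and 32147 FPKM in wt and at 10422 and 8127 in cko. The summed level of 12 neutrophil markers was 137051 to 161117 FPKM in wt and 91726 to 110341 in cko. Most of it came from S100a9, Ngp, S100a8, Camp and Ltf. Of the 12, 3 were higher (Cxcr2, Csf3r and Lcn2) and 6 lower at an unadjusted p under 0.05 (limma). Of all genes tested, 11.4% were higher and 4.95% lower at this threshold. The summed level of 6 early neutrophil markers was 1257 to 1340 FPKM in wt and 1664 to 2019 in cko, with 2 of the 6 higher and 0 lower. For 11 erythroid markers the sums were 2357 to 3746 FPKM in wt and 1437 to 1533 in cko, with 6 of the 11 lower, and for 10 hepatocyte markers 88.1 to 147 and 61.6 to 75.2, with 2 of 8 tested lower. The summed levels of macrophage markers (266 to 392 FPKM in wt and 269 to 452 in cko) and megakaryocyte markers (9.99 to 24.6 and 9.96 to 17.5) overlapped. Those of B lineage (52.9 to 67.5 and 34.5 to 44.8), T and NK (45.9 to 67.6 and 31.0 to 37.6) and eosinophil, basophil and mast cell markers (127 to 243 and 95.2 to 100.5) were lower in cko. In wt the largest part of the T and NK sum was Gzma (44.0 and 26.5 FPKM, 10.5 and 15.7 in cko). That of the last sum was Prg2 (191 and 110 FPKM, 77.6 and 64.6 in cko). Log2 fold changes were above 0 for 0 of 6 tested B lineage, 1 of 3 T and NK and 2 of 5 eosinophil, basophil and mast cell markers. No marker gene was at 0 in all libraries. Wt replicate 2 stood apart from the other libraries in Y-linked transcripts, with Ddx3y at 24.9 FPKM against at most 0.00866 elsewhere, and in Xist, at 0.0119 FPKM against 4.91 to 7.98. In bulk libraries such as these, fewer cells of a type and less RNA per cell cannot be told apart.

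Of the 6 oxidase genes, 5 were among the most abundant transcripts of these cells and Rac1 was not. Cybb, Cyba, Ncf4, Rac2 and Ncf1 took ranks between 38 and 111 of all genes in the 4 libraries, and Rac1 took ranks between 1945 and 3381. Together the 6 genes held 0.690% and 0.801% of all FPKM in wt and 0.883% and 0.802% in cko. Cyba was lower and Rac1 higher in cko by the values of every library, whereas for the other 4 genes the groups overlapped. Groups were likewise apart for 51.6% of all genes tested (33.6% higher and 18.0% lower in cko). After adjustment over the 10779 genes tested, none of the 6 differences passed 0.05, with adjusted p from 0.214 to 0.938.

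**Figure D1:**
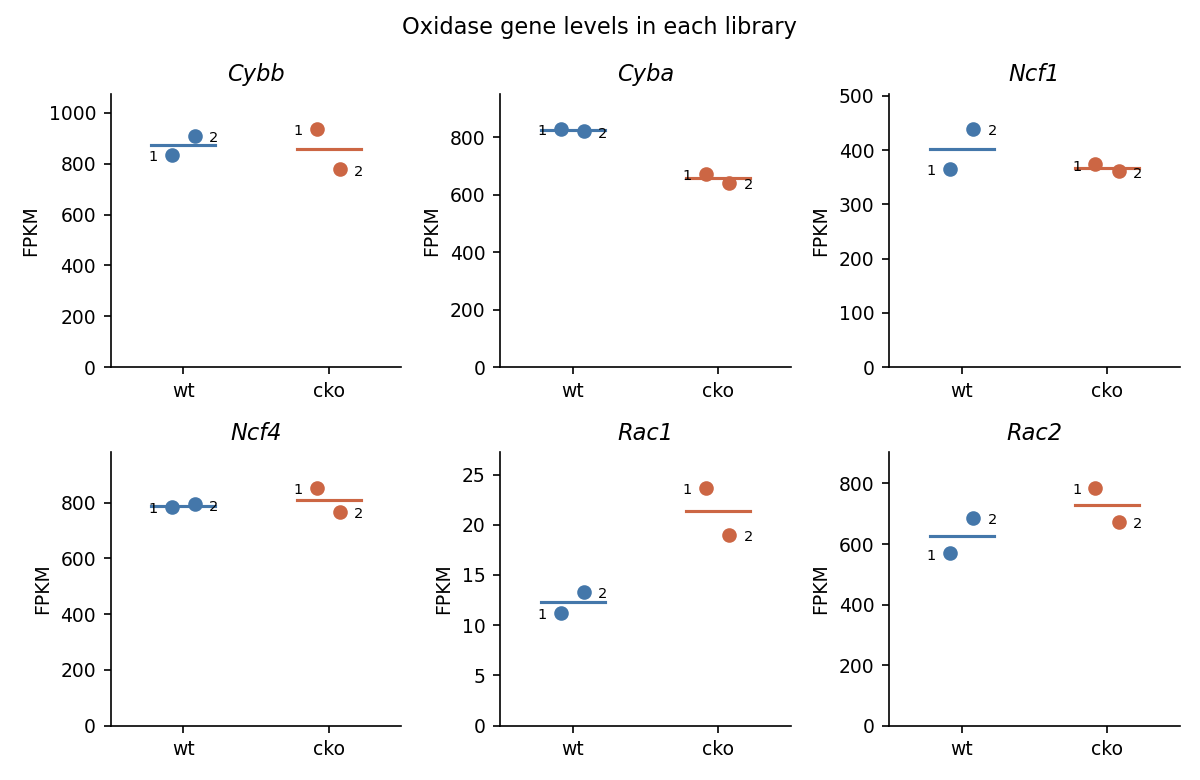
FPKM (vertical axis, from 0) of each oxidase gene in the wt and cko libraries, with replicate numbers beside the points and the group mean as a line. The cko points lie below both wt points for Cyba and above both for Rac1, and the groups overlap in the other panels.

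The promoter sequences of the core subunits are shown first, since Cybb is the classical target of myeloid transcription factors and Cyba is the core subunit whose groups were apart. They come from RefSeq (GRCm38.p6) and run from 250 bases before to 50 bases after the transcription start, 5′ to 3′ on the gene's strand. Only Cybb, Cyba and Ncf1 had an entry among the 6 genes. Capitals mark a match in Cybb to GAGGAA, a core sequence bound by PU.1, read on the other strand.
Cybb, chrX:9469275-9469574, minus strand: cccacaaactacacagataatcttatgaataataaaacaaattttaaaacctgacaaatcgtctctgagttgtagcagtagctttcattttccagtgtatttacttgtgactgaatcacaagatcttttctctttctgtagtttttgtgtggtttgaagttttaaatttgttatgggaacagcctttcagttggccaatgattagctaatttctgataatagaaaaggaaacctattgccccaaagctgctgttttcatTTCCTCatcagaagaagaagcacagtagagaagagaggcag
Cyba, chr8:122432891-122433190, minus strand: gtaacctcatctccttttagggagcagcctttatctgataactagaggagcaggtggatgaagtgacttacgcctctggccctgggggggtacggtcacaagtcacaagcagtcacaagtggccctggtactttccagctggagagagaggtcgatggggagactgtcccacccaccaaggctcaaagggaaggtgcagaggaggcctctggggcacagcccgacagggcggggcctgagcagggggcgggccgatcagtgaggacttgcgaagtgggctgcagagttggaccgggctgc
Searched on both strands, GAGGAA occurred in 28.3% of 32851 mouse promoters of this length. The match in Cybb lies at bases 260 to 265 of the window, just downstream of the RefSeq start, and the windows of Cyba and Ncf1 hold none. That RefSeq start of Cybb lies inside the gene span used below, which on the minus strand begins at 9487771. A match describes the letters and does not show that a factor binds there.

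Cybb (ENSMUSG00000015340), which encodes the catalytic subunit gp91phox with its flavin and haem groups, lies on the minus strand of chromosome X from 9435252 to 9487771 (GRCm38), and its principal transcript has 13 exons. Its level was 835 and 909 FPKM in wt replicates 1 and 2 and 935 and 777 FPKM in cko replicates 1 and 2. The highest and the lowest library were both cko, so that the groups overlapped. The log2 fold change was −0.03 (SE 0.16, 95% interval −0.42 to 0.36, adjusted p = 0.938, limma), which leaves room for 0.748 to 1.28 times the wt level. Between 79871 and 107680 reads per library lay behind these values, so that counting error was small beside the spread between libraries. Because the gene is X-linked, its values were also read without wt replicate 2, the library with Y-linked transcripts, and the log2 fold change was then 0.03.

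Cyba (ENSMUSG00000006519) encodes p22phox, which stabilises gp91phox and carries the docking site for p47phox. It lies on the minus strand of chromosome 8 from 122424776 to 122432930 and its principal transcript has 6 exons. Cyba was at 829 and 821 FPKM in wt and at 673 and 643 FPKM in cko. The wt libraries lay close together, and both cko libraries were below them, at 0.798 of the wt mean. The log2 fold change was −0.33 (SE 0.13, 95% interval −0.65 to −0.0026, unadjusted p = 0.0487, adjusted p = 0.302, limma), so the difference passed 0.05 before adjustment and not after it. It was at −0.11 (unadjusted p = 0.473) once erythroid and hepatocyte markers were removed and the libraries rescaled to a common total, a step that moved the median of all genes from 0.09 to 0.27. Relative to the median of all genes the difference was −0.42 without that step and −0.38 with it. Leaving out any 1 library kept the direction, with values from −0.36 to −0.29, and took the unadjusted p above 0.05, to between 0.0741 and 0.186. The neutrophil marker sum was lower in the same libraries. Of its 12 markers, 6 were lower and 3 higher at an unadjusted p under 0.05 (limma), beside 4.95% and 11.4% of all genes tested. The part of these markers in the Cyba difference was not tested.

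The ratio of the core partners can be read within a library, free of any scaling between libraries. Per FPKM, Cyba stood at 0.993 and 0.903 of the Cybb level in wt replicates 1 and 2 and at 0.720 and 0.827 in cko replicates 1 and 2. The cko ratios were both below the wt ratios. With 2 libraries per group an exact two-sided permutation test cannot go below p = 0.333, and no other test was run on this ratio. A 3rd gene tied to the core, Cybc1 (listed under its older symbol BC017643), encodes a chaperone that the gp91phox and p22phox pair needs to mature. Cybc1 was at 23.2 and 22.1 FPKM in wt and 20.2 and 23.0 in cko, and its groups overlapped (log2 fold change −0.07, adjusted p = 0.854, limma).

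Ncf1 (ENSMUSG00000015950) encodes p47phox, the organiser subunit that is phosphorylated on activation and brings the cytosolic complex to the membrane. It lies on the minus strand of chromosome 5 from 134220053 to 134229625, with 11 exons in its principal transcript. The 4 values were 366 and 439 FPKM in wt and 374 and 361 FPKM in cko. Wt replicate 2 was the high library and the other 3 lay together, so that the groups overlapped (log2 fold change −0.12, SE 0.15, 95% interval −0.50 to 0.25, adjusted p = 0.699, limma). Without wt replicate 2 the log2 fold change was 0.0057. Of the 3663 exon bases of Ncf1, 408 lie opposite exons of Gtf2ird2, which stood at 6.35 to 10.7 FPKM.

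Ncf4 (ENSMUSG00000071715), the gene for p40phox, whose PX domain binds a phosphoinositide of the phagosome membrane, lies on the plus strand of chromosome 15 from 78244801 to 78262580, with 10 exons in its principal transcript. It was at 785 and 794 FPKM in wt and at 854 and 767 FPKM in cko. The cko libraries lay on both sides of the wt libraries (log2 fold change 0.04, SE 0.14, 95% interval −0.30 to 0.38, adjusted p = 0.920, limma).

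Transcripts of the cytosolic subunits Ncf1 and Ncf4 were not equally abundant. Ncf4 exceeded Ncf1 by 2.14 and 1.81 times in wt and by 2.28 and 2.12 times in cko, with overlapping groups. These ratios compare FPKM values, which are per length, and say nothing of the amounts of protein.

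**Figure D2:**
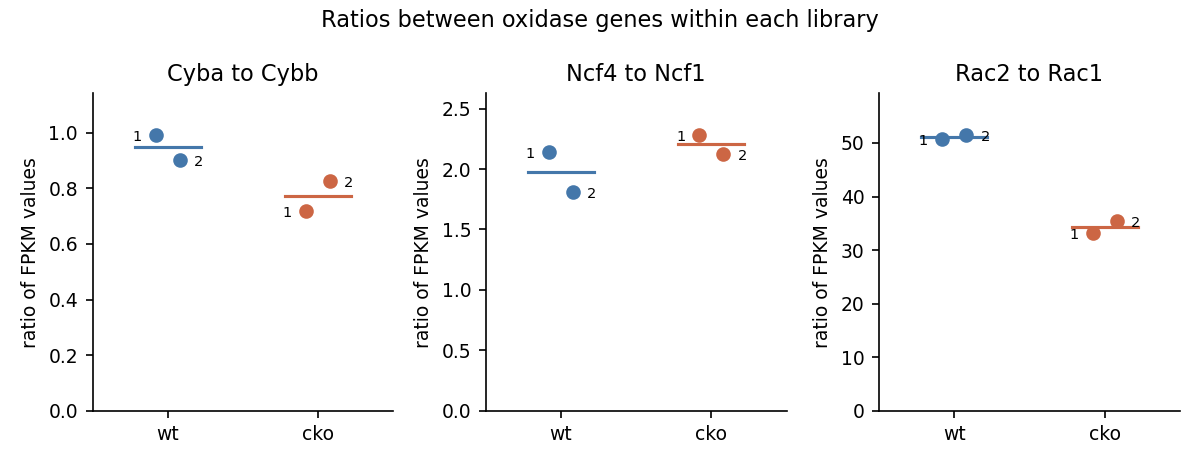
Ratio of FPKM values within each library (vertical axes, from 0) for Cyba to Cybb, Ncf4 to Ncf1 and Rac2 to Rac1, with replicate numbers beside the points and the group mean as a line. The cko ratios of Cyba to Cybb (0.720 and 0.827) and of Rac2 to Rac1 (33.2 and 35.4) lie below both wt ratios, and those of Ncf4 to Ncf1 overlap.

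Rac1 and Rac2 are small GTPases that switch the assembled oxidase on in their GTP-bound form. Rac2 is made mainly in blood cells and Rac1 in nearly all cells. No 50-base stretch of Rac1 transcripts occurs in another gene in the same sense, and for Rac2 the share is 0.484%.

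Rac2 (ENSMUSG00000033220) lies on the minus strand of chromosome 15 from 78559169 to 78572783, with 7 exons in its principal transcript. It was at 569 and 685 FPKM in wt and at 786 and 673 FPKM in cko. Cko replicate 2 lay just below wt replicate 2, so that the groups overlapped by that pair. The log2 fold change was 0.22 (SE 0.17, 95% interval −0.19 to 0.63, adjusted p = 0.529, limma), and the upper end of its interval allows 1.55 times the wt level.

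Rac1 (ENSMUSG00000001847) lies on the minus strand of chromosome 5 from 143503634 to 143528036, with 6 exons in its principal transcript. It was at 11.2 and 13.3 FPKM in wt and at 23.7 and 19.0 FPKM in cko. Both cko libraries were above both wt libraries, at 1.74 times the wt mean. The log2 fold change was 0.75 (SE 0.18, 95% interval 0.29 to 1.21, unadjusted p = 0.00762, adjusted p = 0.214, limma), so this difference, too, passed 0.05 before adjustment and not after it. Without wt replicate 1 it was 0.63, at an unadjusted p of 0.0560. Reads behind the values numbered 1120 and 1126 in wt and 1996 and 1509 in cko.

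The Rac1 values carry a limit of annotation. Of its 4496 exon bases, 2309 (51.4%) lie opposite exons of Daglb, a neighbour on the other strand, and 0 of these are in the Rac1 coding sequence. The strand setting of the read counting is not given in the sources used here, and without strand, reads from a gene and its antisense partner cannot be told apart. Daglb itself was listed at 3.04 and 3.83 FPKM in wt and at 3.11 and 2.11 in cko, with overlapping groups. How the overlap acts on the level or the difference of Rac1 was not tested.

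Rac2 exceeded Rac1 in FPKM by 50.7 and 51.5 times in wt and by 33.2 and 35.4 times in cko. The wt ratios lay close together and the cko ratios were both lower.

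In wt libraries the FPKM levels followed the order Cybb, Cyba, Ncf4, Rac2, Ncf1 and Rac1, and no neighbours in this order overlapped in their 2 values. The wt means were 872 ± 52.8 (SD, n = 2) for Cybb, 825 ± 5.47 for Cyba, 789 ± 6.37 for Ncf4, 627 ± 82.5 for Rac2, 402 ± 51.4 for Ncf1 and 12.3 ± 1.48 for Rac1. The order in both cko libraries was Cybb, Ncf4, Rac2, Cyba, Ncf1 and Rac1. Cyba thus moved from the 2nd to the 4th place, though in cko the values of Cybb and Ncf4, of Ncf4 and Rac2 and of Rac2 and Cyba overlapped. The cko means were 856 ± 112 for Cybb, 810 ± 61.6 for Ncf4, 729 ± 80.3 for Rac2, 658 ± 21.4 for Cyba, 367 ± 9.27 for Ncf1 and 21.3 ± 3.33 for Rac1.

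As a group the 6 genes were split between directions, with 3 log2 fold changes above 0 and 3 below it. Their median log2 fold change was 0.0025, beside 0.09 over all genes tested. Before adjustment, 2 of the 6 had p under 0.05, where 16.4% of all genes tested did (11.4% higher and 4.95% lower in cko). The groups did not overlap for 2 of the 6, Rac1 higher and Cyba lower, where this held for 51.6% of all genes tested (33.6% higher and 18.0% lower). At the combined cut-off of an absolute log2 fold change above 1 and an unadjusted p under 0.01, 0 of the 6 passed, where 2.29% of all genes tested did. After adjustment 0 of the 6 passed, as did 0.0% of all genes tested, and the smallest adjusted p of any gene was 0.129. Beside these shares the counts of 2 are not a result about the oxidase as a group.

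**Figure D3:**
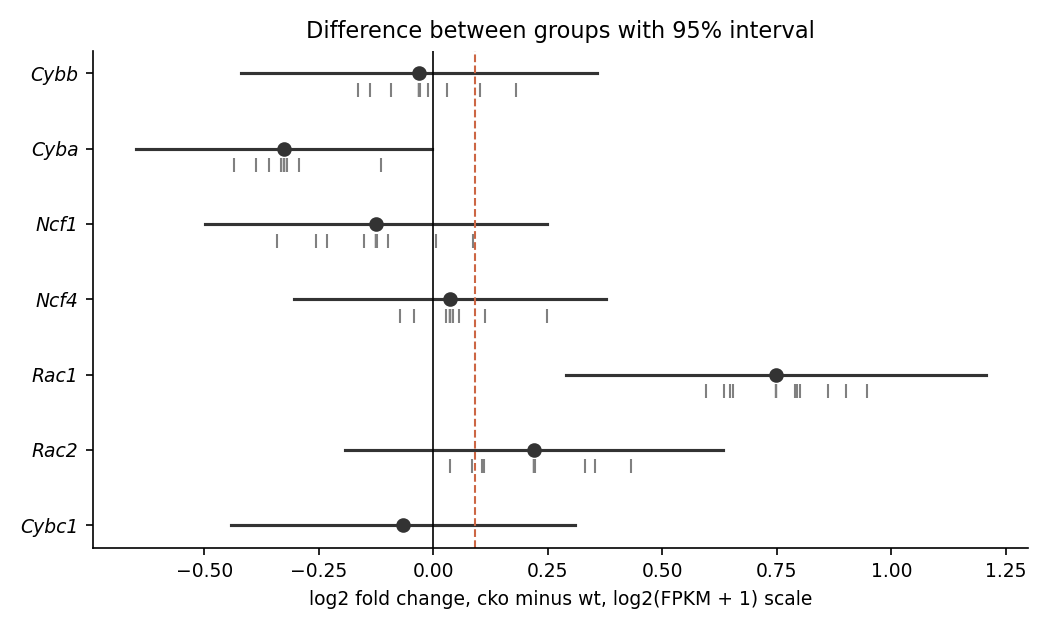
Log2 fold change of cko minus wt on the log2(FPKM + 1) scale (horizontal axis) for the 6 oxidase genes and Cybc1. Points with bars are limma estimates with 95% intervals, grey ticks under the 6 genes are the values under the 15 alternative settings, and the dashed line is the median of all genes (0.09). The ticks of Rac1 stay above 0 and those of Cyba below 0, while those of Cybb, Ncf1 and Ncf4 lie on both sides.

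The closeness of patterns was measured as the root mean square difference of centred log2(FPKM + 1) values over the 4 libraries, among 3811 other genes averaging 10 FPKM or more. Nearest to Cybb were Abhd5 (0.0098), Entpd5 and Polr2e, and nearest to Cyba were Ccdc47 (0.013), Mfsd14b and Dars. Nearest to Ncf1 were Tmem161a (0.024), Prune1 and Sri, to Ncf4 Ppp1r2 (0.010), Khnyn and Numb, and to Rac2 Txnl4b (0.0075), Acd and Gpaa1. The nearest to Rac1 were Esyt1 (0.038), Rplp0 and Tagln2. Such closeness over 4 libraries is common, since between 256 and 582 genes lay within 0.1 of each oxidase gene other than Rac1, for which 23 did. Between the 6 genes themselves, Cybb and Ncf4 were closest (0.064) and Cyba and Rac1 farthest apart (0.55).

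Of the related oxidase genes, those measured were near or at 0. Nox1, Nox4, Duox1, Duoxa1, Noxo1 and Noxa1, which form or serve the NADPH oxidases of epithelia and other tissues, were each listed below 0.3 FPKM in every library.

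Kinases and other proteins that act on the oxidase during activation gave the largest count of genes higher in cko among the 5 lists of related genes. Of 18 tested, 7 passed 0.05 before adjustment, all higher in cko, as 11.4% of all genes tested did (Irak4, Pik3cd, Prkcd, Pik3r5, Lyn, Syk and Mapk14), and 0 after it, with a median log2 fold change of 0.30. Irak4, a kinase of Toll-like receptor signalling, was at 6.72 and 9.19 FPKM in wt and at 14.8 and 13.3 in cko (log2 fold change 0.76, unadjusted p = 0.00959). In this list groups did not overlap, with cko higher, for 11 of the 18 tested, Irak4 among them, and with cko lower for 1. This held for 33.6% (higher) and 18.0% (lower) of all genes tested. Prkcd, the protein kinase C delta that phosphorylates p47phox, was at 41.5 and 51.3 FPKM in wt and at 64.7 and 67.9 in cko (0.51, unadjusted p = 0.0208). Pik3cd, a catalytic subunit of phosphoinositide 3-kinase, was at 24.8 and 26.0 FPKM in wt and at 37.9 and 33.7 in cko (0.48, unadjusted p = 0.0191). Hvcn1, the proton channel that balances the charge moved by the oxidase, was at 8.20 and 8.87 FPKM in wt and at 7.28 and 4.17 in cko, at an unadjusted p of 0.0845. In the same libraries the summed level of 10 monocyte markers was 505 to 533 FPKM in wt and 523 to 662 in cko. The largest part of this sum was Ly6c2 (343 and 360 FPKM in wt, 333 and 315 in cko). Of the 10, 2 were higher and 0 lower at an unadjusted p under 0.05 (limma), beside 11.4% and 4.95% of all genes tested. Log2 fold changes were above 0 for 8 and below 0 for 2, with a median of 0.36. The part of these markers in the differences of the signalling list was not tested.

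Enzymes that handle superoxide and peroxide, the products of the oxidase, were mixed in direction. Of 20 tested, 5 were higher and 3 lower in cko at an unadjusted p under 0.05, beside 11.4% and 4.95% of all genes tested, 0 passed after adjustment, and the median log2 fold change was 0.07. Sod2, the mitochondrial superoxide dismutase, was at 14.3 and 11.9 FPKM in wt and at 31.7 and 94.4 in cko (log2 fold change 1.99, unadjusted p = 0.00761). Both cko libraries were above wt and they differed from each other more than the wt libraries did. Of the 20, 8 had groups apart with cko higher and 4 with cko lower, beside 33.6% and 18.0% of all genes tested. The cytosolic enzyme Sod1 was at 8.78 and 11.1 FPKM in wt and at 16.4 and 16.0 in cko (0.66, unadjusted p = 0.0103). Hmox1, haem oxygenase 1, was at 84.3 and 68.7 FPKM in wt and at 135 and 257 in cko (1.28, unadjusted p = 0.00782). Gpx4, which reduces lipid peroxides, went the other way, with 77.7 and 72.3 FPKM in wt and 50.8 and 47.1 in cko (−0.61, unadjusted p = 0.00552). Mpo, the myeloperoxidase that turns hydrogen peroxide into hypochlorous acid, was at 327 and 254 FPKM in wt and at 384 and 327 in cko.

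The enzymes that supply NADPH, the electron donor of the oxidase, had groups apart for 4 of the 9 tested (3 higher and 1 lower in cko), where 51.6% of all genes tested had. Of the 9, only Idh1 had an unadjusted p under 0.05, beside 16.4% of all genes tested, at 20.2 and 18.4 FPKM in wt and at 14.1 and 13.4 in cko (log2 fold change −0.46, unadjusted p = 0.0233), and 0 passed after adjustment. G6pdx, the first enzyme of the pentose phosphate pathway, was at 374 and 400 FPKM in wt and at 564 and 436 in cko, at an unadjusted p of 0.0857. The median log2 fold change of the 9 was 0.18.

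Transcription factors known to act at the Cybb promoter were followed last. Of 6 tested, Spi1 and Irf1 had an unadjusted p under 0.05, both higher in cko as 11.4% of all genes tested were, 0 passed after adjustment, and the median log2 fold change was 0.37. Spi1, which encodes PU.1, was at 77.3 and 126 FPKM in wt and at 264 and 145 in cko (0.98, unadjusted p = 0.0359). Irf1, an interferon-induced factor, was at 25.9 and 21.2 FPKM in wt and at 47.4 and 102 in cko (1.53, unadjusted p = 0.00653). For both genes the cko libraries were above the wt libraries, as for 4 of the 6 tested and 33.6% of all genes tested. Any link of these factors to the level of Cybb was not tested. Cebpe, a factor of late granulocyte maturation, was at 81.5 and 101 FPKM in wt and at 89.7 and 40.9 in cko.

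**Figure D4:**
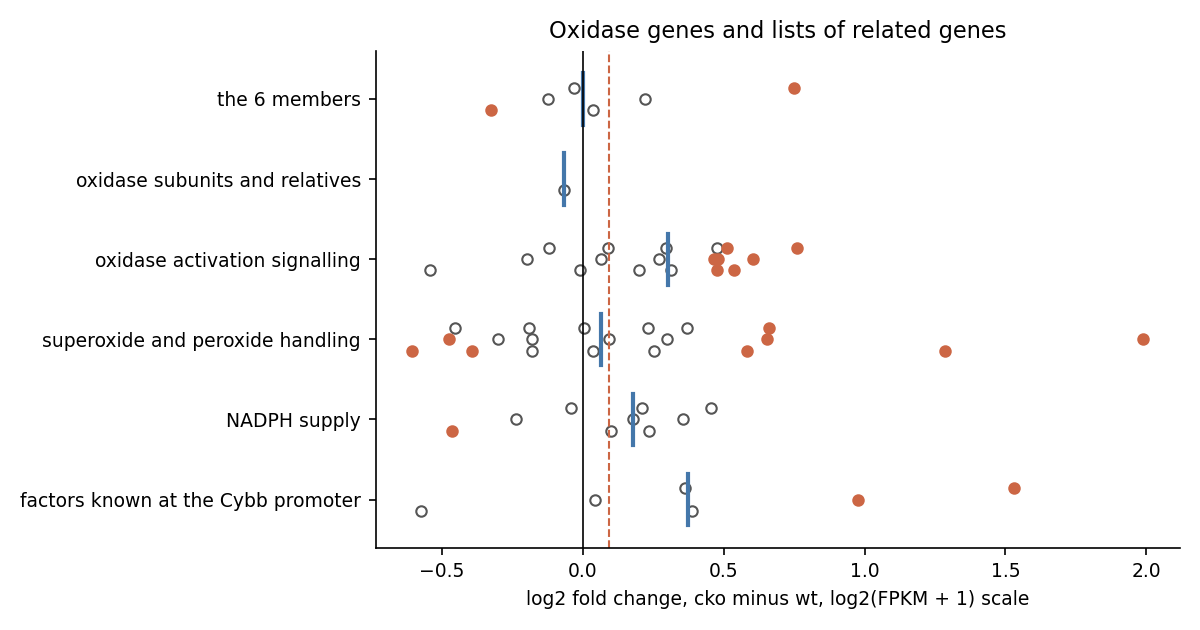
Log2 fold change of cko minus wt on the log2(FPKM + 1) scale (horizontal axis) for each tested gene of the 6 oxidase genes and of the 5 lists of related genes. Filled points have an unadjusted p under 0.05 and open points do not, blue bars are list medians and the dashed line is the median of all genes tested (0.09). The 7 filled points of the activation signalling list all lie above 0, whereas the superoxide and peroxide list has filled points on both sides.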

How the data were processed

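The authors deposited 1 FPKM value per gene and library, unscaled between libraries (RPKM in the methods). The submitters' processing notes name Bowtie2 2.2.3, TopHat2 2.0.12, HTSeq 0.6.0 and the build mm9, while 92.61% of genes had the same position as in GENCODE M21 (GRCm38), the annotation used here. FPKM values were whole multiples of 1 read, which gave the library totals and the reads of 98.06% of genes. For 91.29% of genes the annotated length gave whole reads (within 0.02 of a read, with a wider limit at high counts). For the others recovered, Ncf4 and Rac2 among them, the shortest length giving whole reads was taken, so their reads may be understated. All columns were assigned to a library.

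Libraries were grouped by their labels. The groups were compared by limma 3.58.1 (R 4.3.3; lmFit, eBayes with a trend, no covariates) on log2(FPKM + 1) for genes averaging 1 FPKM or more, with Benjamini-Hochberg adjustment over all 10779. Fold changes on this scale understate those of low genes. The fit was also run on simulated reads with changes larger than those of the 6 genes, so that run says nothing of its power for them. The genes and lists were chosen with earlier results of these data known. Named genes are the 6 genes, Pdcd1, Lyz2, Xist and Y-linked genes, Cybc1, the 3 genes of closest pattern, and at most 4 genes per list with the lowest unadjusted p under 0.05; those named beyond this rule (Daglb, Gtf2ird2, Hvcn1, Mpo, G6pdx, Cebpe, the further signalling genes and the related oxidases) were chosen after their values were seen. There were 5 pathway and 10 marker lists. Some related genes and sequences are not reported here and were left out of these lists. The related genes Nox3, Duox2 and Duoxa2 were not analysed here.

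The alternatives were other pseudocounts (0.1 and 0.01), no filter or a minimum mean of 5 FPKM, and quantile or median-of-ratios scaling. Further ones were erythroid and hepatocyte markers removed with libraries rescaled to a common total, eBayes without a trend and a replicate block. The last planned ones were voom on recovered reads and each library left out in turn, and a crossed pairing of libraries was added later. Tables were made with Python 3.11.15.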

Additional observations from a re-analysis of the deposited data

How the results depend on the processing

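Over 15 alternatives Rac1 stayed between 0.60 and 0.95 on the log2 scale (unadjusted p under 0.05 in 14, adjusted p 0.106 to 0.615) and Cyba between −0.43 and −0.11 (in 5, adjusted p 0.237 to 0.660). These 15 include the crossed pairing described below, which gave the lowest adjusted p of both genes. Rac2 stayed above 0, between 0.04 and 0.43. Near 0, Cybb, at −0.03, was 0.18 with erythroid and hepatocyte markers removed and libraries rescaled to a common total. It was −0.16 to 0.10 with a library left out. Ncf1, at −0.12, was 0.086 and −0.26 to 0.0057 in the same settings, −0.34 under quantile normalization (unadjusted p = 0.0710, limma) and −0.23 under median-of-ratios scaling. Ncf4, at 0.04, was 0.25 under that removal with rescaling, −0.072 under median-of-ratios scaling and −0.042 to 0.11 with a library left out. The members' median, 0.0025, was 0.21 under the removal with rescaling and −0.11 under median-of-ratios scaling. With a library left out it was −0.096 to 0.11. The median of all genes, 0.09, was 0.27 under the removal with rescaling and 0.0014 under median-of-ratios scaling. Before rescaling, both wt libraries had a higher FPKM total than both cko libraries, so a common total raises cko relative to wt. The removed markers were a small part of each total. The number of members with an unadjusted p under 0.05 (limma) was 2. It was 1 under eBayes without a trend, under the removal with rescaling and at a minimum mean of 5 FPKM. It was also 1 with no filter, with a pseudocount of 0.01 and under the replicate block. With any library left out the count also fell, as Cyba no longer passed 0.05, nor did Rac1 without wt replicate 1. Of all genes, 1768 had an unadjusted p under 0.05, 1135 at a minimum mean of 5 FPKM and 845 to 1732 with a library left out (845 without wt replicate 1, 1073 without cko replicate 2). The count at a minimum mean of 5 FPKM was out of 5813 genes tested and the others out of 10779. The smaller count under that filter is therefore not a smaller share of the genes tested. Genes with an adjusted p under 0.05 numbered 0, and 2 under voom on recovered reads. The cause of these shifts was not tested, and the marker removal and the rescaling were not run apart.

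The labels do not say that replicate numbers pair the libraries, and same-numbered libraries correlated at −0.16 in their deviations from the group means. The replicate block gave 1247 genes with an unadjusted p under 0.05. The crossed pairing, added after that correlation was seen, gave 2255, and 1 gene with an adjusted p under 0.05. With 2 libraries per group the intervals stay wide even for genes with the most reads.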
